A study of Homo sapiens with 5 samples.

Results

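The kallikrein-related peptidases KLK5 to KLK14 are secreted serine proteases whose genes lie next to each other in one cluster on chromosome 19. These 10 genes were followed through 5 arrays of MCF12A, a long-established line of breast epithelium that does not form tumours, out of 18724 genes named on either array platform. The members were chosen by name. Each was read from probe sets annotated with exactly 1 gene symbol, and differences were taken from the culture's own control within the same table of values. All 10 were measured in the table of the soft agar clone, and 9 in the table of the exposed cultures, where the probe set for KLK8 is also annotated to KLK9.

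Per the labels, 1 array came from cells exposed to 2.5% ethanol for 4 weeks, 1 from cells exposed to 1% acetaldehyde for 4 weeks, and 1 from untreated cells. A further array came from a clone picked for growth in soft agar after ethanol exposure and regrown as a monolayer, and 1 from its own control. All cultures grew in medium with horse serum, epidermal growth factor, hydrocortisone, insulin and cholera toxin. For the clone, the sample label gives 2.5% ethanol over 4 weeks but the design text 2.5 mM, and the protocol speaks of further ethanol after selection. Its control is marked as unexposed and also as selected on soft agar. The dose and the control's history are therefore unsettled, and the pair is described only as labelled. The clone is a single clone, each group is 1 culture on 1 array, and no test, p-value or error between cultures can be given. The values are RMA intensities on a linear scale, 1 per probe set, and log2 differences below are the exposed or selected array minus its control. In whole cultures, fewer cells with a transcript and less transcript per cell cannot be told apart.

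Kallikrein-related peptidases are made as inactive precursors, secreted, and activated by cleavage, often by one another or by other epithelial proteases. In skin, KLK5 and KLK7 cut the proteins of the corneodesmosomes that hold the outermost cells together, and the balance between these enzymes and their inhibitors sets how cells are shed. Several members are also made by breast epithelium. KLK10 was first described as a gene present in normal breast epithelial cells and low in breast tumour lines.

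The members sit on the reverse strand in the order KLK5 to KLK14, with no other protein-coding gene between them in the RefSeq table. Start-site windows of 4 members are shown because KLK7 and KLK10 had the largest differences from control after ethanol, KLK5 the next, and KLK9, which lies between KLK8 and KLK10, the smallest among members bright enough to compare. The windows are from RefSeq on GRCh38.p14, the first listed for each gene, 300 bases that span the start site and lie mostly before it, on the minus strand, written in the direction of transcription. They lie at chr19:50952989-50953288 for KLK5, chr19:50983868-50984167 for KLK7, chr19:51009543-51009842 for KLK9 and chr19:51019812-51020111 for KLK10. Capitals mark matches on either strand to TATAA (the core of the TATA box), GGGCGG (the GC box), CACCTG (an E-box) or TGANTCA (the AP-1 site), and a window with no match has no capitals.
KLK5: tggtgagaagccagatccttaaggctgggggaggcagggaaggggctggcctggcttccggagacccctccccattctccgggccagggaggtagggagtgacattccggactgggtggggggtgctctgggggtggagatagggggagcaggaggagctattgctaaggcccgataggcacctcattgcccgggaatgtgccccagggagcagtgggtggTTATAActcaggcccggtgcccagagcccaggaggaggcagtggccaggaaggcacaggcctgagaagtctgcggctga
KLK7: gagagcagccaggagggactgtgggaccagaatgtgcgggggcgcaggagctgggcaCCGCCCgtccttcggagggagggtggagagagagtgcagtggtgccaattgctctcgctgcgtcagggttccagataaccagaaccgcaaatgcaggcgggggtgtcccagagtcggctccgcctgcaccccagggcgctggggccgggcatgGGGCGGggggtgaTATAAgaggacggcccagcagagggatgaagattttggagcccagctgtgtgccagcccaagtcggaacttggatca
KLK9: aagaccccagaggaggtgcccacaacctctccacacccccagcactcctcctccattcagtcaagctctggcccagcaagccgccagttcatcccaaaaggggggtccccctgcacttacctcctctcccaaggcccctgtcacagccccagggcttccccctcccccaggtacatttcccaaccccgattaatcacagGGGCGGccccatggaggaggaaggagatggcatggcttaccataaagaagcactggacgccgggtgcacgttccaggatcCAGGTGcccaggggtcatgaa
KLK10: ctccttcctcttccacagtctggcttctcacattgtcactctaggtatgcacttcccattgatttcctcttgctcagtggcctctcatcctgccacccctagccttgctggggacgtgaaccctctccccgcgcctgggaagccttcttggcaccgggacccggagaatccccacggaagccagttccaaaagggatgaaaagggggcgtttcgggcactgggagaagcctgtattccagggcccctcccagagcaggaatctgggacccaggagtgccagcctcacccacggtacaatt

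KLK5 and KLK7 each held a TATAA match close to the start site, at -28 and -27. In KLK5 it overlaps a second match on the other strand at -29. For KLK7 the position depends on the start site listed. In its window at chr19:50983766-50984065 the same match lies at -129, and the window at chr19:50984015-50984314 holds no TATAA match. The KLK7 window held GC boxes at -193 and -40, and the KLK9 window held a GC box at -51 and an E-box at 30 bases after the start. The KLK10 window held none of the 4 motifs. Over the 16 windows listed for 9 members, 5 held TATAA, 10 GGGCGG, 7 CACCTG and 0 TGANTCA. These windows belonged to 3, 6, 6 and 0 of the 9 members, in the same order. Among all 35116 windows in the table these motifs were in 20.4%, 45.0%, 20.6% and 7.71%, in the same order. These matches describe letters only, and some windows of one gene overlap. KLK8 has no window here.

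Whether a member was bright enough to compare was judged by the median of all values in its table, an intensity of 70.2 for the exposed cultures and 92.0 for the clone and its control. KLK5, KLK7, KLK9, KLK10 and KLK11 reached it in at least 1 array of both comparisons of the exposed cultures. KLK6, KLK12, KLK13 and KLK14 did not. In the clone's table KLK8 and KLK13 passed as well, so that 7 of 10 members did, and KLK6, KLK12 and KLK14 did not. The closest to the line were KLK11 at 74.3 in untreated cells, just inside, and KLK6 at 91.1 in the clone's control, just outside. Intensities of different probe sets are not compared with each other, since probes differ in how strongly they bind.

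**Figure D1:**
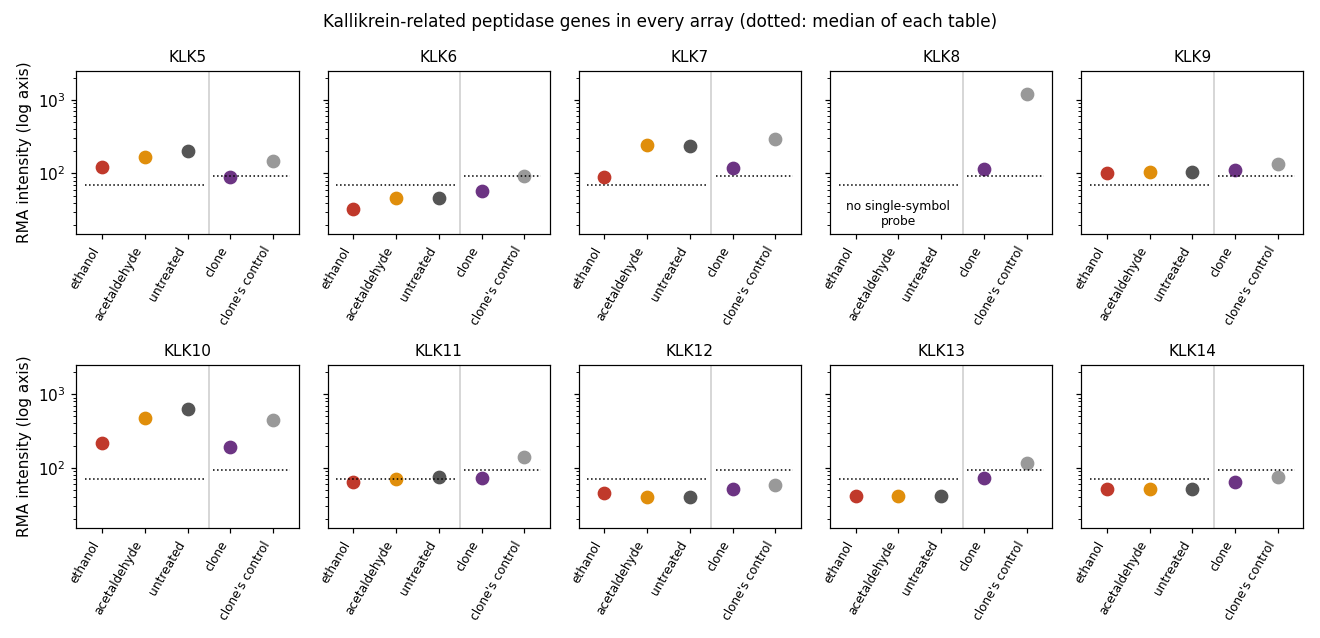
RMA intensity (log axis) of each member in every array, 1 point per array, with the median of each table as a dotted line and the 2 tables separated by a vertical line. KLK7 and KLK10 are lowest in the ethanol array among the exposed cultures, and KLK8 stands at 115 in the clone against 1202 in its control.

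The first question was how the members differed after 4 weeks in ethanol. KLK7 and KLK10 were lower by 2-fold or more, and no member was higher by as much. KLK10 had an intensity of 217 in ethanol, 472 in acetaldehyde and 638 in untreated cells, a log2 difference of -1.55 for ethanol. The ethanol array was the lowest of the 3 and the acetaldehyde array lay between. KLK7, the chymotrypsin-like enzyme that cuts corneodesmosin, had 88.3 in ethanol, 241 in acetaldehyde and 236 in untreated cells, a log2 difference of -1.42 for ethanol. Here ethanol alone was low, and acetaldehyde stood beside the untreated array. Of all 11264 genes past the median, 2.46% had a 2-fold or larger decrease in ethanol and 2.63% an increase of that size, against 2 lower and 0 higher of the 5 members that passed. From the lowest, KLK10 ranked 139 and KLK7 163 of 11264 genes. In ethanol itself 4 of the 5 members reached the median, KLK7 and KLK10 among them, and in untreated cells 5. Passing through the control alone favours lower values, so the count is a description.

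KLK5, a trypsin-like enzyme that can activate KLK7, had 121 in ethanol, 168 in acetaldehyde and 200 in untreated cells. Its order was that of KLK10, with a log2 difference of -0.72 in ethanol, short of 2-fold. KLK11 had 64.4, 70.7 and 74.3 in the same order of cultures, and KLK9 had 101, 103 and 106, so both lay close to the untreated array, KLK11 in ethanol under the median. Their log2 differences in ethanol were -0.21 and -0.06. The probe set annotated to both KLK8 and KLK9 had 104 in ethanol, 188 in acetaldehyde and 213 in untreated cells, a log2 difference of -1.04 in ethanol. Which of both genes it reads cannot be told from these values, and it is not counted above. It bears the same identifier as the probe set annotated to KLK8 alone in the clone's table. The probe set annotated to KLK9 alone had -0.06.

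Among the members under the median, KLK6, a trypsin-like enzyme also made in brain, had 32.8 in ethanol and 46.6 in untreated cells. KLK12 had 44.8 in ethanol and 40.0 in untreated cells, the 1 member with a higher value in ethanol. KLK13 at 41.6 and KLK14 at 50.9 had the same value in all 3 arrays. Such equal values are common in this table. Within a log2 difference of 1e-06, 43.9% of all probe sets had equal values in ethanol and untreated cells, and 48.2% in acetaldehyde and untreated cells. No level can be read for these 4 members there beyond lying under the median.

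After 4 weeks in acetaldehyde no member reached 2-fold in either direction. Of 11194 genes past the median, 0.0536% were lower by 2-fold or more and 1.03% higher by as much, so that few genes of any kind were lower by that much. KLK10 and KLK5 had log2 differences of -0.43 and -0.25, which ranked 97 and 404 from the lowest of those 11194 genes. KLK11, KLK9 and KLK7 had -0.07, -0.03 and 0.03. KLK6, KLK12, KLK13 and KLK14 were equal in acetaldehyde and untreated cells. Ethanol and acetaldehyde were given at different doses and share the untreated array, so their values are given side by side, as the order of the arrays, with no difference taken between them.

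The soft agar clone was then set against its own control, 2 arrays with a control apart from that of the exposed cultures. KLK8, KLK7 and KLK10 passed 2-fold on the lower side in the clone, and no member was higher. KLK8, a trypsin-like enzyme known as neuropsin, had 115 in the clone against 1202 in its control, a 10.5-fold lower value and a log2 difference of -3.39. KLK7 had 118 against 294, a log2 difference of -1.31. KLK10 had 194 against 441, a log2 difference of -1.19. Among 12262 genes past the median, 5.84% passed 2-fold on the lower side and 14.7% on the higher side, against 3 lower and 0 higher of the 7 members that passed. From the lowest, KLK8 ranked 76, KLK7 429 and KLK10 517 of these genes. In the clone itself 4 of the 7 members reached the median, these 3 among them, and in its control 7. Passing through the control alone favours lower values and works against higher ones, so the count is a description. The KLK8 and KLK9 probe sets share 1 transcript record in the annotation. The KLK8 probe set bears the identifier of the one annotated to both genes in the exposed cultures. It is thus assigned to KLK8 alone by this platform's annotation only. The KLK9 probe set had a log2 difference of -0.26.

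The other members lay below their control as well, without reaching 2-fold. KLK11 had 72.2 in the clone against 138 in its control, a log2 difference of -0.93. KLK5 had 90.0 against 149, and KLK13 had 73.2 against 114, log2 differences of -0.73 and -0.64. In all 3 the clone lay under the table median and the control above it, so the fold below the control is at least 1.49, 1.62 and 1.24 when taken against that median. KLK9 had 111 against 133. Under the median, KLK6 had 57.7 in the clone against 91.1, KLK12 had 51.8 against 58.9 and KLK14 had 64.1 against 74.3. Each of the 10 members was thus lower in the clone as deposited. Past the median all 7 members lay below 0, beside 50.8% of all genes, whose median log2 difference was -0.02. Passing through the control alone favours such values. Over all probe sets, dim ones included, the table leaned the same way, with a median log2 difference of -0.17. Relative to that shift KLK12, KLK14 and KLK9 had -0.02, -0.05 and -0.09. With a lowess correction for brightness KLK12 and KLK14 turned to 0.05 and 0.01.

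Of the 9 members measured in both tables, KLK7 and KLK10 passed 2-fold on the lower side in ethanol and in the clone. Of all genes past the median 2.46% did in ethanol and 5.84% in the clone. The share of all genes that did in both was not counted, so the overlap is a description. KLK7 was 2.68-fold lower in ethanol and 2.48-fold lower in the clone. KLK10 was 2.94-fold lower in ethanol and 2.28-fold lower in the clone. KLK9 was near its control in both, and KLK11 stood at -0.21 in ethanol and at -0.93 in the clone. Log2 differences of all genes past the median spread more widely in the clone, with a standard deviation of 0.98 against 0.50 in ethanol. The clone had also been exposed to ethanol, so exposure and selection cannot be told apart in it.

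**Figure D2:**
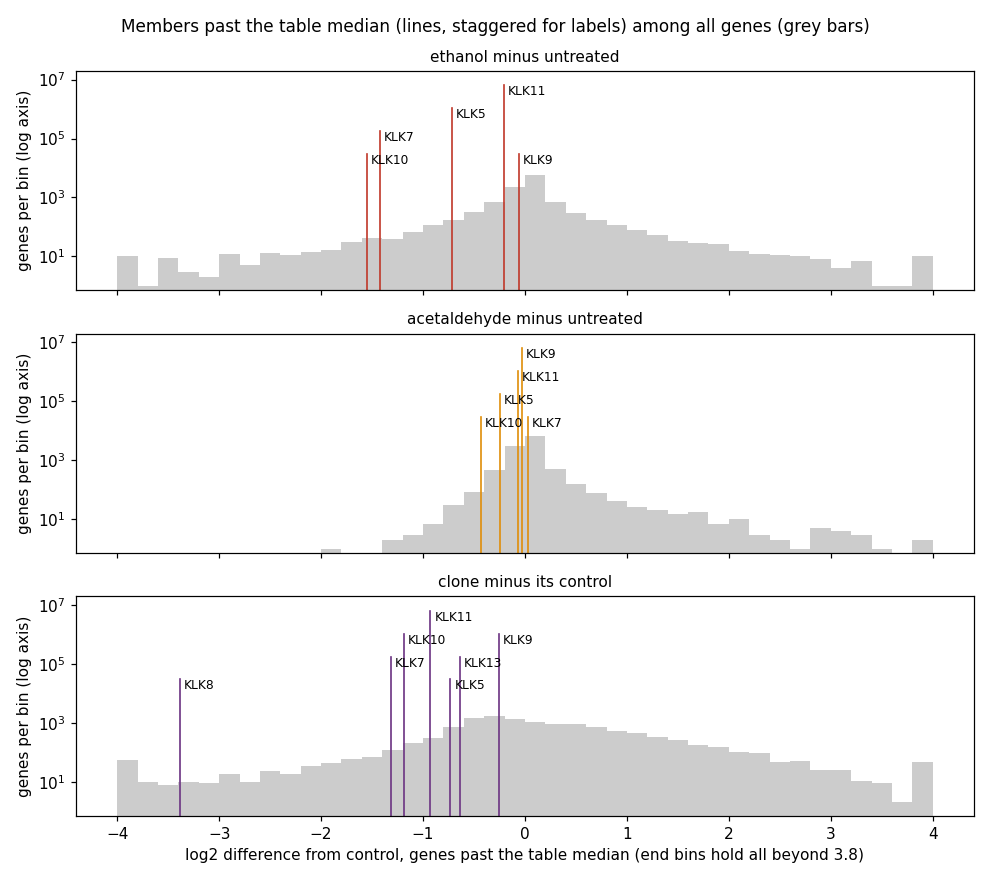
Number of genes past the table median (log axis) by log2 difference from control in bins of 0.2, grey bars, for the 3 comparisons, with a coloured line at each member that passed, staggered in height only to fit the names. The lines for KLK10 and KLK7 lie in the lower tail in ethanol, all lines lie within 0.5 of 0 in acetaldehyde, and KLK8 lies at -3.39 in the clone.

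The chromosome gives a frame for these values. On the side of KLK5 lie the other 5 kallikrein genes, KLK4, KLK2, KLK3, KLK15 and KLK1, which include the gene of prostate-specific antigen, KLK3. In the exposed cultures KLK1 was the 1 of these 5 past the median, with 92.8 in each of the 3 arrays, and the other 4 were too dim to be read. For the clone, KLK1, KLK3 and KLK4 were past the median, and none of them passed 2-fold. KLK1 had 115 in the clone against 174 in its control, and KLK3 had 83.0 against 132, log2 differences of -0.60 and -0.67. On the side of KLK14 lie CTU1, a tRNA-modifying enzyme gene, and the sialic acid receptor genes SIGLEC9 and SIGLEC7. CTU1 had log2 differences of 0.10 in ethanol, 0.00 in acetaldehyde and -0.70 in the clone. Of the 5 measured genes on that side 2 were past the median in ethanol, 2 in acetaldehyde and 3 in the clone, and none of these passed 2-fold. The others were too dim to be called. KLK7, KLK8 and KLK10, the members past 2-fold in the clone, lie side by side but for KLK9, which had -0.26. PPIAP59, next to KLK5, and CD33 were not analysed here.

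**Figure D3:**
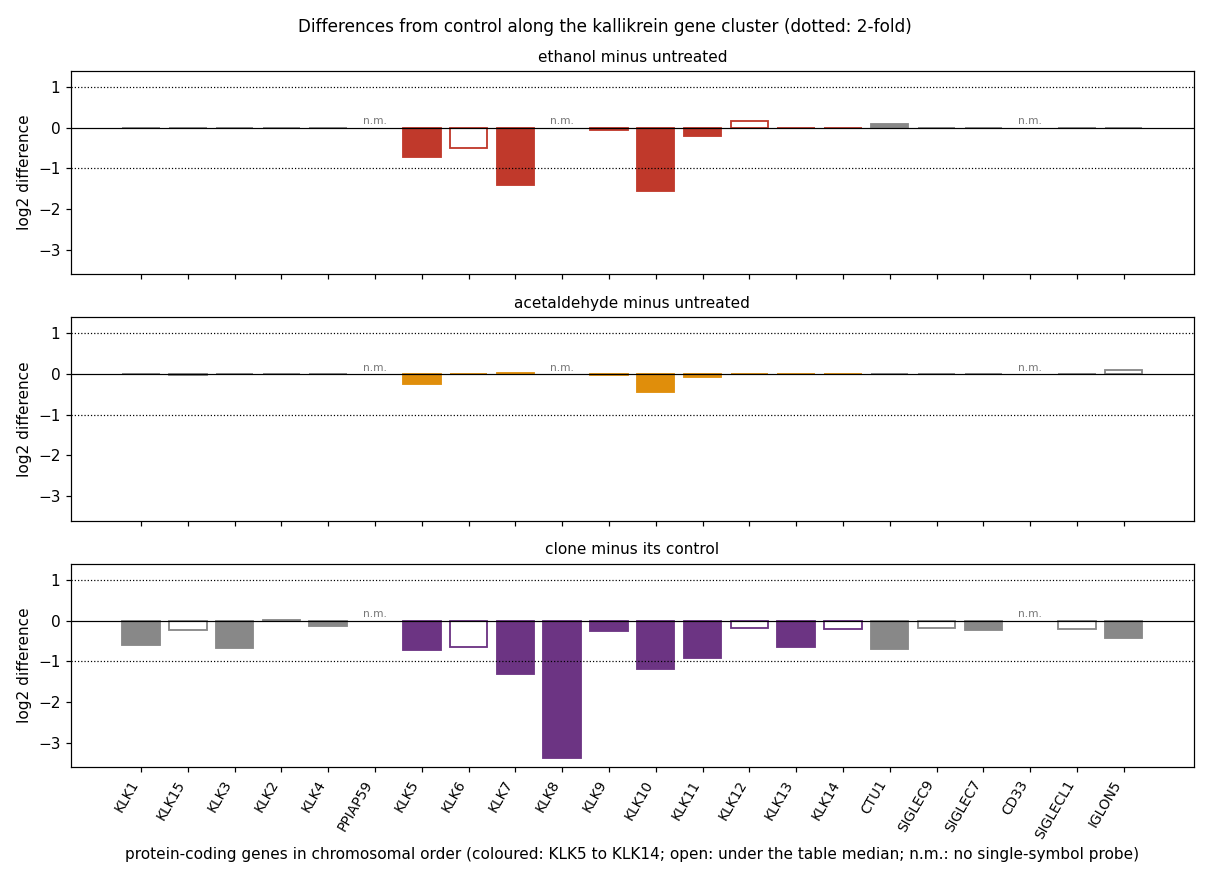
Log2 difference from control (y axis) for KLK5 to KLK14 in colour and the 5 measured of the 6 nearest protein-coding genes on each side in grey, in chromosomal order, for ethanol, acetaldehyde and the clone. Open bars lie under the table median; KLK7 and KLK10 pass the dotted line of 2-fold in ethanol and in the clone, and KLK8 in the clone, while the outer kallikrein genes do not.

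The partners of these enzymes were read from lists of inhibitors, activators and substrates, pooled here with the 5 outer kallikrein genes. Of 40 listed genes 37 were measured in the exposed cultures and 36 in the clone's table. In ethanol 12 of the 21 past the median were lower by 2-fold or more, and 1 was higher by as much. Of all genes past the median 2.46% were lower and 2.63% higher by that much. The listed genes' median log2 difference was -1.42, against 0.00 over all genes past the median. In acetaldehyde 0 of 21 were lower and 1 was higher, beside 0.0536% and 1.03% of all genes, and the median was -0.07, against 0.00 over all genes. In the clone 14 of 24 were lower and 2 were higher, beside 5.84% and 14.7% of all genes, and the median was -1.46, against -0.02 over all genes. Passing the median through the control alone favours genes that are lower, so these counts are descriptions. The lists were drawn up with earlier results in view, and their members overlap with epithelial genes already known to differ here.

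Among inhibitors, 3 of 4 past the median were lower by 2-fold or more in ethanol. In acetaldehyde 0 were, and in the clone 4 of 4. Of all genes past the median 2.46%, 0.0536% and 5.84% were lower by as much, in the same order. In the clone itself 2 of the 4 inhibitors reached the median. A2ML1, an alpha-2-macroglobulin-like inhibitor of epidermis, had 50.1 in ethanol, 778 in acetaldehyde and 930 in untreated cells. It had 57.0 in the clone against 3235 in its control, at least 35.2-fold lower against the table median. SLPI, the secretory leukocyte protease inhibitor, had 1351 in ethanol, 3638 in acetaldehyde and 3192 in untreated cells, and 1006 in the clone against 7312 in its control. Ethanol and the clone were thus low for both, and acetaldehyde was near untreated cells. PI3, the elastase inhibitor elafin, had log2 differences of -1.92 in ethanol and 0.00 in acetaldehyde, and was at least 2.22-fold lower in the clone against the table median. SERPINA3, a serpin also called antichymotrypsin, had log2 differences of -0.90 in ethanol, -0.02 in acetaldehyde and -2.46 in the clone. SPINK6 and SPINK9, kallikrein inhibitors of the skin, lay under the median in every array.

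Among activating proteases and the inhibitors of those proteases, 4 of 6 past the median passed 2-fold on the lower side in ethanol. In acetaldehyde 0 of 6 did, and in the clone 5 of 8. Of all genes past the median 2.46%, 0.0536% and 5.84% did, in the same order. In the clone itself 5 of the 8 reached the median. ST14, which encodes the membrane protease matriptase, had 81.1 in ethanol, 209 in acetaldehyde and 218 in untreated cells, and 78.9 in the clone against 319 in its control. PRSS8, which encodes prostasin, had 58.8 in ethanol, 249 in acetaldehyde and 268 in untreated cells, and 93.3 in the clone against 1900 in its control. For both genes ethanol and the clone were the low arrays. Against the table median ST14 was at least 3.46-fold lower in the clone, and PRSS8 at least 3.82-fold lower in ethanol. SPINT1 and SPINT2, which encode the membrane inhibitors of matriptase and prostasin, had log2 differences of -2.12 and -1.87 in ethanol, and of -4.31 and -3.08 in the clone. In acetaldehyde they had -0.22 and -0.24. ST14, PRSS8, SPINT1 and SPINT2 were thus low in the same arrays. TMPRSS13, a membrane protease gene, was the fifth to pass 2-fold in the clone, with 75.7 against 170 in its control, at least 1.84-fold lower against the table median. PLAT, the tissue plasminogen activator gene, had -0.73 in ethanol, -0.23 in acetaldehyde and 0.39 in the clone.

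Among desmosomal proteins, some of them known substrates, 3 of 5 past the median were lower by 2-fold or more in ethanol. In acetaldehyde 0 of 5 were, and in the clone 4 of 5. Of all genes past the median 2.46%, 0.0536% and 5.84% were, in the same order. In the clone itself 2 of the 5 reached the median. CDSN, which encodes corneodesmosin, the target of KLK5 and KLK7 in skin, was not lower by 2-fold in any comparison. It had 84.8 in ethanol, 100.3 in acetaldehyde and 144 in untreated cells, and 130 in the clone against 162 in its control. The ethanol array was the lowest of its 3, and the log2 difference of -0.52 in acetaldehyde ranked 59 from the lowest of 11194 genes. DSG1 and DSC1, the desmosomal cadherin genes of upper skin layers, lay under the median in every array. DSG3, a desmosomal cadherin gene of basal layers, was 12.1-fold lower in ethanol and at least 41.8-fold lower in the clone against the table median. DSC3 was 14.5-fold lower in ethanol and at least 27.3-fold lower in the clone, and DSC2 was 14.2-fold and at least 10.3-fold lower. In acetaldehyde DSG3, DSC3 and DSC2 had log2 differences of -0.07, -0.22 and -0.14. DSG2, made in many epithelia, had -0.46 in ethanol, -0.04 in acetaldehyde and -1.34 in the clone.

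Other substrates went both ways. In ethanol 2 of 5 past the median were lower and 1 higher by 2-fold or more. In acetaldehyde 0 were lower and 1 higher, and in the clone 1 of 4 lower and 2 higher. Of all genes past the median 2.46% were lower and 2.63% higher in ethanol, and 0.0536% and 1.03% in acetaldehyde. In the clone 5.84% of all genes were lower and 14.7% higher. F2R, which encodes the thrombin receptor PAR1, a receptor that several proteases can cleave, had 441 in ethanol, 414 in acetaldehyde and 415 in untreated cells. In the clone it had 942 against 335 in its control, a log2 difference of 1.49. F2R was past 2-fold in the clone, and its log2 difference in ethanol was 0.09. IL1B, an interleukin gene whose product KLK7 can process, was at least 3.34-fold lower in ethanol against the table median and had a log2 difference of -0.32 in acetaldehyde. It lay under the median in both arrays of the clone's table. FN1, the fibronectin gene, was past 2-fold on the higher side in all 3 comparisons, with log2 differences of 3.32 in ethanol and 2.99 in acetaldehyde, and a 15.8-fold higher value in the clone. CDH1, the E-cadherin gene, was 9.49-fold lower in ethanol and had a log2 difference of 0.18 in acetaldehyde. It had 43.6 in the clone, under the median, against 920 in its control.

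**Figure D4:**
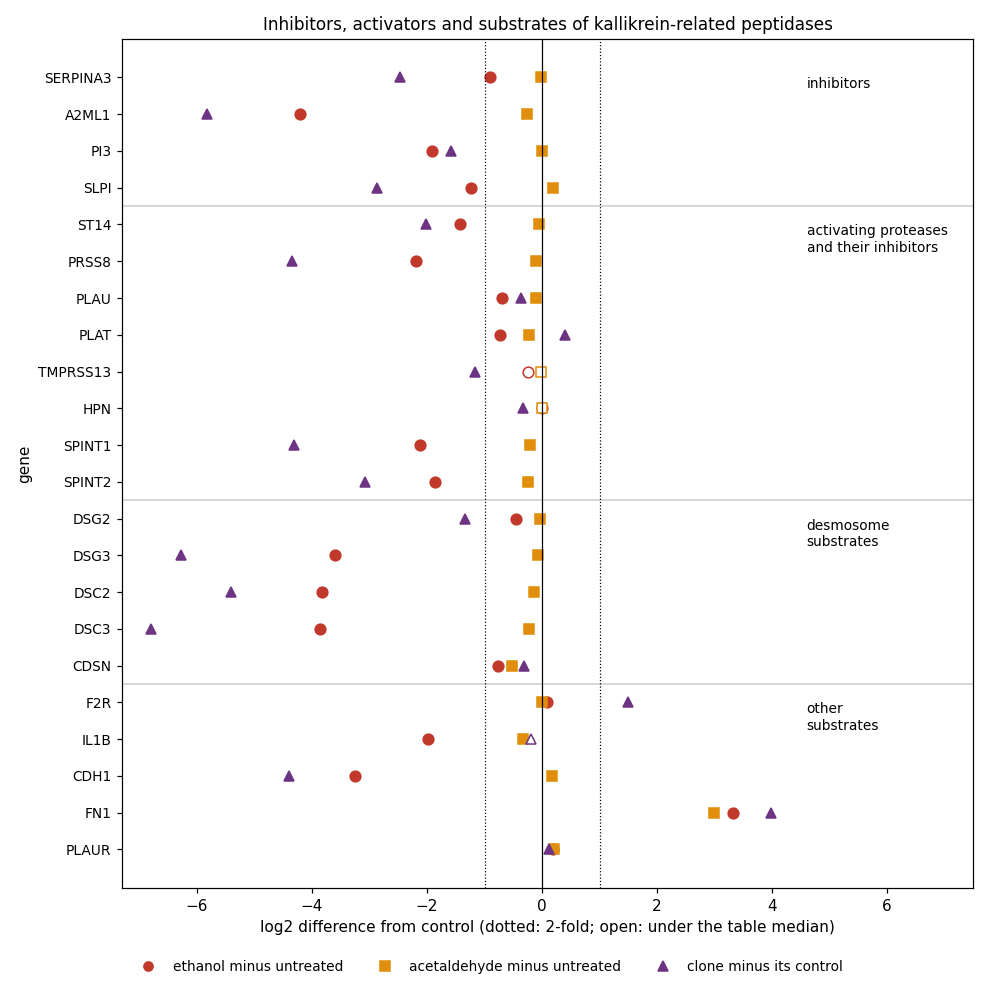
Log2 difference from control (x axis) of listed inhibitors, activating proteases with their inhibitors, and substrates that passed the table median in at least 1 comparison, with circles for ethanol, squares for acetaldehyde and triangles for the clone. Of the circles 12, and of the triangles 14, lie left of the dotted line at -1, the squares lie between -0.52 for CDSN and 0.20 for PLAUR except for FN1 at 2.99, and open symbols lie under the table median.

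Genes whose 3 differences from control lay closest to those of a member were found among 10445 genes past the median in all 3 comparisons, by Euclidean distance between log2 differences. For KLK7 these were PTPRF, FHIP1A and ETS2, at distances of 0.09, 0.17 and 0.19. PTPRF, a receptor tyrosine phosphatase gene, had -1.33 in ethanol, 0.00 in acetaldehyde and -1.32 in the clone. For KLK10 they were GMPR, ANK3 and CXCL14, at 0.09, 0.18 and 0.20. GMPR, a purine reductase gene, had -1.62, -0.42 and -1.24 in the same order. For KLK5 they were TMEM79, ANO9 and REEP4, at 0.02, 0.06 and 0.07. For KLK9 they were GRK6, PABPC3 and LSM8, and for KLK11 UBQLN4, NFE2L1 and SCAMP1, all within 0.06. With 3 differences, 2 of which share the untreated array, such closeness is a description only.

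Some markers of cell identity differed in the arrays in which members were lower, and their part in these results was not tested. The epithelial keratin genes KRT5, KRT8 and KRT18 were past the median in all 5 arrays. The summed intensity of the basal mammary genes KRT5, KRT14 and CDH3 was 4050 in ethanol, 9109 in acetaldehyde and 8948 in untreated cells, and 4427 in the clone against 18997 in its control. All 3 passed the median in each array but the clone, where 2 did. In such sums the brightest probe sets weigh most, here that of KRT5, with 3629 in ethanol and 6056 in untreated cells. KRT5, KRT14 and CDH3 had log2 differences of -0.74, -2.53 and -2.86 in ethanol. In acetaldehyde they had 0.03, 0.39 and -0.11, and in the clone -1.64, -4.02 and -5.39. The 6 luminal genes, of which 5, 6 and 6 were past the median in ethanol, acetaldehyde and untreated cells and 4 in the clone against 6 in its control, summed to 4606, 5384 and 4631 in ethanol, acetaldehyde and untreated cells, and to 6069 in the clone against 8189. Within them EPCAM, CD24 and MUC1 were past 2-fold on the lower side in ethanol and in the clone. EPCAM was read from a different probe set in each table. KRT8 was 2.08-fold higher in ethanol. Of 7 fibroblast genes 4 lay past the median in ethanol, 4 in acetaldehyde and 3 in untreated cells, and their sums were 540, 542 and 467. In the clone 5 did, against 4 in its control, with sums of 1684 and 811. Among the fibroblast genes DCN had 88.1 in ethanol, 98.0 in acetaldehyde and 31.4 in untreated cells, while COL1A2 and PDGFRB were equal in these arrays. The 4 adipocyte genes summed to 2356 in ethanol, 321 in acetaldehyde and 205 in untreated cells, and to 1216 in the clone against 320, with 2 past the median in each exposed or selected array and 1 in each control. FABP4 carried most of the difference in these sums, with 2163 in ethanol, 152 in acetaldehyde and 41.8 in untreated cells, and 962 in the clone against 23.1, while ADIPOQ and LEP lay under the median in all 5 arrays. Of the leukocyte genes, PTPRC and CD3E lay under the median in all 5 arrays, and CD68 was past it in all 5. The 3 leukocyte genes measured summed to 1525, 1096 and 763 in ethanol, acetaldehyde and untreated cells, and to 1049 in the clone against 1122. CD68 carried nearly all of these sums, with 1484, 1055 and 721, and 986 in the clone against 1045. PTPRC and CD3E were each equal in the 3 arrays of the exposed cultures. The 3 endothelial genes lay under the median in all 5, with sums from 121 to 163. The listed genes SPINK5, SERPINB6, F2RL1, KRT17 and TP63 were not analysed here.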

How the data were processed

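Total RNA of 5 MCF12A cultures was hybridised to Affymetrix Gene ST arrays, 1 per group. The authors deposited linear intensity, which per the submitters' processing notes came from RMA. Its version was not given in the sources used here. The 3 arrays of the exposed cultures and the 2 of the clone came in separate tables on different platforms, treated as normalised separately. Of 33297 probe sets a table, 19181 and 19460 had exactly 1 symbol. A gene was read from its brightest probe set by table mean, and each measured member had 1. A difference counted at 2-fold where the higher array reached the table median, a line and not a measured background. Python 3.11.15, pandas 2.3.3 and statsmodels 0.14.6 were used, and counting was tested on simulated data. The number of arrays limits the precision, and no test was possible. Alternatives covered the floor, dim values, the fold, centring, normalisation, lowess and probe choice. Named genes were all members and, from each partner list, those with the largest differences and further genes, some of them under the median. Flanking genes and the 3 nearest genes per member were also named, and marker genes came from the marker lists. The members, lists and rules were chosen with earlier results of these data known.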

Additional observations from a re-analysis of the deposited data

How the results depend on the processing

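No paired analysis was possible because each group is 1 array. The count of members at least 2-fold lower in ethanol was 2. With the 75th percentile of the table as the floor it became 1, which left KLK10, the 1 member past that floor, beside 3.34% of all genes past it. At 1.5-fold it became 3, with KLK5 added, and at 3-fold 0, beside 5.12% and 1.15% of all genes past the median. In the clone the count of 3 became 6 at 1.5-fold, with KLK5, KLK11 and KLK13 added, where 15.3% of all genes past the median were lower. Taken against the table median, KLK11 and KLK13 were at least 1.49-fold and 1.24-fold lower, short of 1.5-fold. At 3-fold the clone's count became 1, which left KLK8, beside 2.52% of all genes past the median. With the 75th percentile as the floor the clone's count stayed 3, of 3 members past that floor, beside 8.51% of all genes. With no floor, with dim values raised to it, with centring, with quantile normalisation again, with lowess and with probes averaged per gene the counts were 2 in ethanol, 0 in acetaldehyde and 3 in the clone. Counting the probe set of KLK8 and KLK9 for KLK8, a choice made after seeing the data, gave 3 in ethanol and 0 in acetaldehyde. Over the members' 252 log2 differences under alternatives, no called member changed sign. Many of these values could not move. A changed floor or fold leaves a log2 difference as it is, as does averaging where a member has 1 probe set. Centring shifted the exposed cultures by 0.00. With 1 array per group the spread between cultures is unknown, and for members under the table median only that bound can be read.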
